A study of Sus scrofa with 16 samples.

Results

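UCP2, UCP3, COX7A1, GATM and PPARGC1A were followed in the subcutaneous fat of growing pigs as genes of mitochondrial uncoupling, respiration and heat-producing cycles. They are 5 of the 5226 genes that carried a symbol on the array. Their probes were chosen by name and by signal: a probe counted if it was no control, carried the gene's name in the scanner files and stood well above background on 8 or more of the 16 arrays. Signal over background was the measured value that this choice used, without regard to line or replicate number. The gene names gave 12 probes, and the single PPARGC1A probe, named PPARGC-1 in the files, was matched through its RefSeq accession. All 13 probes were kept, and each was well above background on 16 of 16 arrays: 1 for UCP2, 2 for UCP3, 2 for COX7A1, 7 for GATM and 1 for PPARGC1A. The genes had been proposed with results of these arrays in view, so each adjusted p places a probe among all probes and is not independent evidence. COX7A1 and GATM in particular had been named earlier for their line differences.

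The pigs weighed 20 kg and were fed freely. Selection on residual feed intake had made 2 lines, and 8 pigs were of the low line (low-RFI, RFIneg in the labels) and 8 of the high line (high-RFI, RFIpl in the labels). Residual feed intake is the feed a pig eats beyond what its growth and maintenance predict. RNA of each pig was read on its own Cy3 array. Replicates carry the numbers 1 to 8 in each line, and replicates 1-4 and 5-8 are compared as sets of 8 pigs, 4 of each line. What the numbers mark is not given in the labels.

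Uncoupling proteins are carriers of the inner mitochondrial membrane. UCP1, which lets protons flow back and so turns fuel into heat in brown fat, is not functional in pigs, so heat production in pig fat has been sought in other routes. UCP2 is found in many tissues and in immune cells, and UCP3 is best known from skeletal muscle and brown fat. COX7A1 is the heart and skeletal muscle isoform of a small subunit of cytochrome c oxidase and is also a brown fat marker. GATM makes guanidinoacetate, the precursor of creatine, which is phosphorylated and dephosphorylated in a futile cycle in thermogenic fat. PPARGC1A is the coactivator PGC-1alpha, which raises the transcription of mitochondrial genes.

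Probe sequences are shown because agreement between probes of a gene means more where they read different stretches of its transcript. They were taken from the deposited scanner files in the order listed there, read as 5′ to 3′, and the genome position of the probes was not analysed here. Capitals mark AATAAA, the letters of the common polyadenylation signal, searched on the listed strand only. These letters occurred in 3 of the 13 probes and in 4172 of 43444 probe sequences on the array (9.6%), each 60 bases long. For UCP2 the first 30 bases of its probe are given, for the leading UCP3 probe bases 13 to 42, for the leading COX7A1 probe bases 14 to 43 and for the second COX7A1 probe bases 31 to 60. The second UCP3 probe and the seventh GATM probe are given whole.
UCP2: atcagccaggatctcaagtcctccgtcctt
UCP3 leading probe: ggattatgactcAATAAAggatgcgacacc
UCP3 second probe: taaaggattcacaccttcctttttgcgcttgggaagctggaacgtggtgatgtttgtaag
COX7A1 leading probe: tcaacaagcatcAATAAAtgttctggcttc
COX7A1 second probe: gtctgcaggacctcaacaagcatcAATAAA
GATM seventh probe: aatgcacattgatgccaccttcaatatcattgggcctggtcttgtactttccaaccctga

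The longest exact run that the UCP3 probes shared was 8 bases, and whether their stretches of the transcript touch or overlap was not analysed here. Matches with a mismatch or gap were not searched, so the UCP3 probes are not taken to be independent. The COX7A1 probes overlapped by 31 bases around the same AATAAA. Among the 7 GATM probes, those ranked 2 and 4 by signal shared 49 bases and those ranked 3 and 5 shared 53 bases. UCP2 and UCP3 lie beside each other in the pig genome, with 1 entry, LOC110255396, listed between them in the RefSeq annotation of Sscrofa11.1. Their probes shared no run over 6 bases.

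Values are log2 processed signals minus the 75th percentile of the array, so 0 is that percentile, and levels of different probes are not set against each other. Between 68.7% and 80.3% of the spots of an array were well above background, and no spot outside the controls was saturated. Low-RFI replicate 3 stood with the other replicate set. Over the 4788 probes called between the sets without it, 88.4% of its values were nearer to the mean of replicates 5-8. Measured in the same way, each over the 603 to 1590 probes called without the array in question, low-RFI replicate 1 had 42.2%, the other 6 arrays of replicates 1-4 had 6.14% to 14.5%, and replicates 5-8 had 62.7% to 90.5%. Results that rest on low-RFI replicate 3 are therefore given with and without it where both were computed. Correlations within replicates 1-4 were not computed without it. It was picked by its place in this same comparison, so leaving it out favours larger set differences. The adjusted p-values of the limma fit without it are thus a description and no independent evidence. The mean of the adipocyte markers (11 of 12 measured) stayed within 0.33 of its average on every array. In high-RFI pigs it ran from 0.10 to 0.25 in replicates 1-4 and from -0.33 to -0.13 in replicates 5-8, without overlap, and in low-RFI pigs from -0.29 to 0.29 and from -0.17 to 0.26. Between the sets 8 of the 11 genes had a negative difference. Low-RFI replicate 8 held skeletal muscle transcripts, as given below with COX7A1 and PPARGC1A.

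**Figure D1:**
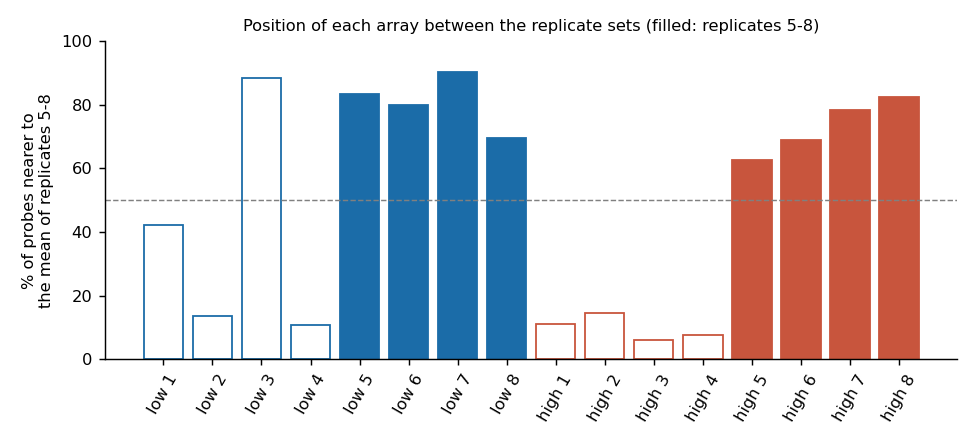
Bars give, for each array, the percentage of probes called between the replicate sets without that array on which the array lay nearer to the mean of replicates 5-8 (filled) than to that of replicates 1-4 (open); the dashed line marks an even split. Low-RFI replicate 3, at 88.4%, is the open bar among the filled ones in height.

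UCP2 was higher in replicates 5-8 than in replicates 1-4 in both lines, by 2.79-fold. In low-RFI replicates 1 to 4 its log2 signal was 0.52, 0.47, 1.70 and 0.79, and in low-RFI replicates 5 to 8 it was 2.74, 1.74, 2.60 and 1.95. In high-RFI replicates 1 to 4 it was 1.29, 0.78, 0.21 and 0.51, and in high-RFI replicates 5 to 8 it was 2.52, 2.12, 2.43 and 2.0. The sets did not overlap, with 1.70 on low-RFI replicate 3 as the highest of replicates 1-4 and 1.74 on low-RFI replicate 6 as the lowest of replicates 5-8. Such a separation in this direction was found for 39 of 32088 probes (0.122%), and in either direction for 0.393%. The difference was 1.48 on the log2 scale (SE 0.21, 95% interval 1.04 to 1.93, limma adjusted p = 0.00612 over all probes). In this comparison 5.18% of all probes passed the adjusted threshold of 0.05, 1.99% as higher and 3.18% as lower. Among the 5 genes, UCP2 was the 1 that passed.

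The difference had the same sign on each slide, the glass that carries several arrays and on which both lines and both sets were equally represented. Within slides 1 to 4 the UCP2 difference was 1.49, 1.98, 0.98 and 1.48, each from 2 arrays against 2. It was 1.39 among low-RFI pigs (limma adjusted p = 0.499, with 0 probes called there) and 1.57 among high-RFI pigs (adjusted p = 0.0176). Without low-RFI replicate 3 it was 1.62 (adjusted p = 1.2e-04). Beside this rise, the adipocyte list had 1 of 11 measured genes past the threshold, AQP7, the glycerol channel, at -0.67 (SE 0.15, adjusted p = 0.0265). The macrophage list had 1 of 8, LYZ, or lysozyme, at -1.88 (SE 0.44, adjusted p = 0.0291). The macrophage mean ran from -0.23 to 0.74 in replicates 1-4 and from -0.88 to 1.25 in replicates 5-8. Across the 16 arrays its correlation with UCP2 was r = -0.15 (rho = -0.20). UCP2 ran against the mean of the 5 measured smooth muscle genes at r = -0.50 and rho = -0.60 (permutation p = 0.0487 and 0.0158, adjusted over 35 relations 0.204 and 0.277), with r = -0.66 and -0.58 within the sets. All 5 of those genes had a negative set difference, and none passed. The part of these markers in the UCP2 difference was not tested. In whole tissue, fewer cells of a type and less RNA per cell cannot be told apart.

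UCP3 lay in the opposite direction, lower in replicates 5-8. Its leading probe gave 5.57, 6.20, 3.06 and 6.08 in low-RFI replicates 1 to 4 and 4.52, 5.02, 4.07 and 4.87 in low-RFI replicates 5 to 8. In high-RFI replicates 1 to 4 it gave 6.59, 6.10, 6.02 and 5.95, and in high-RFI replicates 5 to 8 it gave 5.29, 4.87, 4.48 and 4.99. In the high-RFI line the sets did not overlap, which was so in this direction for 10.2% of all probes, and in the low-RFI line the 3.06 of replicate 3 was the lowest of all 16 values. Over all arrays the difference was -0.93 (SE 0.36, adjusted p = 0.137 in limma) and missed the threshold. The second probe gave -1.23 (SE 0.35, adjusted p = 0.0511).

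Without low-RFI replicate 3 the leading UCP3 probe fell by 1.29 in replicates 5-8 (SE 0.17, limma adjusted p = 3.5e-04), in a fit that called 4788 probes in place of 1662. The array left out was picked on this same comparison and held the lowest UCP3 value, so this p is no separate test. Among high-RFI pigs alone the difference was -1.26 (adjusted p = 0.0211), and among low-RFI pigs alone it was -0.61 (adjusted p = 0.786). Within slides 1 to 4 it was -1.93, -0.93, 0.24 and -1.12. Slide 3, the one with a positive value, carried low-RFI replicate 3. The fit without that array also called markers of other cell types lower in replicates 5-8. They were the endothelial PECAM1 (-0.42, limma adjusted p = 0.00131) and VWF (-0.53, 0.0355), the adipocyte LEP (-1.07, 0.00668) and AQP7 (-0.74, 0.0057), the smooth muscle MYLK (-0.71, 0.0471) and the macrophage LYZ (-2.05, 0.00807). These lists had 8, 11, 5 and 8 measured genes, and the fit called 2842 of all 32088 probes lower. Other genes of the lists were positive: the endothelial KDR and TEK, the adipocyte LPL, PNPLA2 and PPARG, and the macrophage CD14, CD163 and AIF1. No smooth muscle gene was positive. Over all 16 arrays UCP3 followed the mean of the 8 measured endothelial genes at r = 0.63 (permutation p = 0.0083, adjusted over 35 relations 0.145, rho = 0.53), with r = 0.97 within replicates 1-4 and 0.07 within replicates 5-8. The 0.97 includes low-RFI replicate 3, the lowest of replicates 1-4 in UCP3 and in the endothelial mean (-0.28, against 0.07 to 0.20 on the others). It was not computed without that array. Over all arrays without the 2 farthest in endothelial mean, r was 0.55. The part of these markers in the UCP3 difference was not tested. Whether the UCP3 set difference differed between the lines was tested as an interaction, which was 0.65 (SE 0.73, adjusted p = 0.862).

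The UCP3 probes moved together over the 16 arrays, with r = 0.978 and rho = 0.956, each at the smallest permutation p that 100000 resamples can give (1e-05). The gap between them had an SD of 0.21 over the arrays. On low-RFI replicate 3 the second probe was at -0.35, also its lowest value, against 0.18 to 2.89 on the other 15 arrays. The low UCP3 signal of that array was thus read by both probes.

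GATM had the same direction as UCP2. Its leading probe gave 0.01, -0.01, 0.48 and -0.75 in low-RFI replicates 1 to 4 and 0.78, 0.57, 0.44 and 0.01 in low-RFI replicates 5 to 8. It gave -0.27, -0.18, -0.54 and -0.89 in high-RFI replicates 1 to 4 and 0.36, -0.54, 0.31 and 0.26 in high-RFI replicates 5 to 8. The sets overlapped, since low-RFI replicate 3 was at 0.48 and high-RFI replicate 6 at -0.54. The difference was 0.54 (SE 0.18, limma adjusted p = 0.0912), or 1.46-fold, and did not pass. Over the 7 probes it ran from 0.52 to 0.58, with adjusted p from 0.0713 to 0.126. Without low-RFI replicate 3, an array picked on this same comparison, it was 0.63 and passed (adjusted p = 0.0295). The 21 pairs of GATM probes correlated at r from 0.900 to 0.992 (rho from 0.924 to 0.994), and the lowest values belonged to pairs with the seventh probe.

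**Figure D2:**
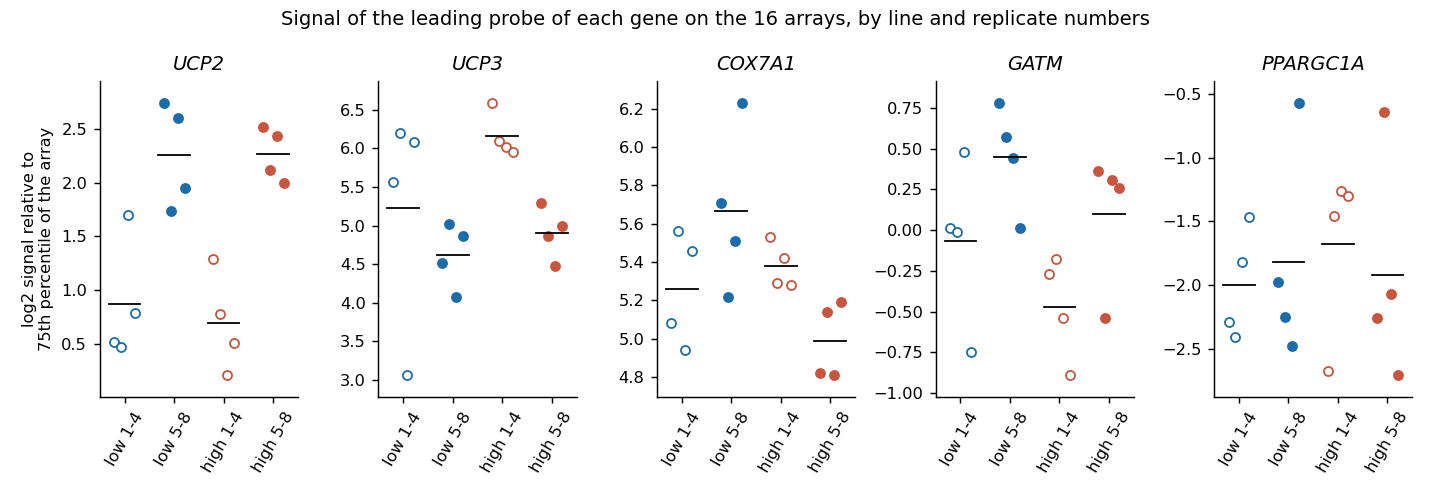
Each panel plots the log2 signal of a gene's leading probe, relative to the 75th percentile of the array, with 1 point per pig, open for replicates 1-4 and filled for replicates 5-8, blue for low-RFI and red for high-RFI, and a bar at each mean of 4. UCP2 is higher and UCP3 lower in the filled points, except that low-RFI replicate 3 has the lowest UCP3 value, 3.06.

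COX7A1 had nearly the same mean in both replicate sets, at 5.32 in replicates 1-4 and 5.33 in replicates 5-8. Its leading probe gave 5.08, 5.56, 4.94 and 5.46 in low-RFI replicates 1 to 4 and 5.71, 5.22, 5.51 and 6.23 in low-RFI replicates 5 to 8. In high-RFI replicates 1 to 4 it gave 5.53, 5.29, 5.42 and 5.28, and in high-RFI replicates 5 to 8 it gave 4.82, 5.14, 4.81 and 5.19. Within replicates 5-8 each low-RFI value was above each high-RFI value, with 5.22 against 5.19 as the closest, which was so in this direction for 1.33% of all probes. The set difference was 0.01 (SE 0.17, 95% interval -0.35 to 0.37, limma adjusted p = 0.979). Both COX7A1 probes, which overlap in sequence, gave the same picture (r = 0.990, rho = 0.947, each at the smallest permutation p of 1e-05).

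PPARGC1A varied widely from pig to pig without following line or set. It gave -2.29, -2.41, -1.82 and -1.47 in low-RFI replicates 1 to 4 and -1.98, -2.25, -2.48 and -0.57 in low-RFI replicates 5 to 8. It gave -2.68, -1.46, -1.26 and -1.30 in high-RFI replicates 1 to 4 and -2.26, -0.64, -2.07 and -2.71 in high-RFI replicates 5 to 8. The highest values were those of low-RFI replicate 8 and high-RFI replicate 6, and the ranges overlapped in every comparison. The set difference was -0.04 (SE 0.33, limma adjusted p = 0.962).

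Low-RFI replicate 8 had the highest value of both COX7A1 and PPARGC1A. On that array the mean of the 15 measured skeletal muscle genes (of 22 listed) lay 7.95 above their average over the arrays. It lay at 1.24 on low-RFI replicate 6, at 0.50 on high-RFI replicate 7, and between -1.05 and -0.35 on the other 13 arrays. COX7A1 correlated with the muscle mean at r = 0.57 (permutation p = 0.057, adjusted over 35 relations of members and marker lists 0.204) but at rho = -0.24, and r was -0.55 without the 2 arrays farthest in muscle signal, so the positive relation rests on those arrays. For PPARGC1A r was 0.48 (adjusted p = 0.204, rho = 0.35) and 0.10 without them. High-RFI replicate 6, the other high PPARGC1A array, was not among the arrays with raised muscle genes. It had the highest mean of the 5 measured skin epithelium genes, at 3.74 against -1.25 to 2.49 on the other arrays. PPARGC1A correlated with that mean at r = 0.48 (rho = 0.33), and at 0.07 without the 2 arrays farthest in it. For GATM r was -0.37, with -0.04 within replicates 1-4 and -0.83 within replicates 5-8. The part of epithelium in these values was not tested. None of the 35 relations passed by r after adjustment, and by rho 1 did. COX7A1 followed the adipocyte mean at rho = 0.75 (permutation p = 0.00119, adjusted p = 0.0416) and r = 0.56 (p = 0.0211, adjusted p = 0.185), with r = 0.93 within replicates 1-4 and 0.55 within replicates 5-8. By r the closest was PPARGC1A with the 5 measured smooth muscle genes, at r = 0.70 (adjusted p = 0.104, rho = 0.51), r = 0.48 within replicates 1-4 and r = 0.86 within replicates 5-8. The smooth muscle list shares DES with the skeletal muscle list, and its mean was highest, at 1.36, on low-RFI replicate 8. That array is in the 0.70 and the 0.86. Without the 2 arrays farthest in the smooth muscle mean, low-RFI replicates 1 and 8, r was 0.74.

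Between the lines, none of the 13 probes passed in limma, as was so for 0 of all 32088 probes (0%; 1180 had an unadjusted p under 0.05). All 13 had an adjusted p of 0.9999. UCP2 differed by 0.08 (SE 0.42, 95% interval -0.80 to 0.96), with means of 1.56 in low-RFI and 1.48 in high-RFI pigs. UCP3 stood at -0.61 (SE 0.42, interval -1.50 to 0.28), and without low-RFI replicate 3 at -0.35. COX7A1 stood at 0.28 (SE 0.16, interval -0.07 to 0.63), at means of 5.46 and 5.18, and without low-RFI replicate 8 at 0.17 (SE 0.14). GATM stood at 0.38 (SE 0.22), and its 7 probes ran from 0.27 to 0.46. PPARGC1A stood at -0.11 (SE 0.32), and without low-RFI replicate 8 at -0.30 (SE 0.29). The lines overlapped for all 5 genes, and lines that did not overlap were found for 0.0125% of all probes.

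The COX7A1 line difference was -0.12 (SE 0.20) within replicates 1-4 and 0.68 (SE 0.20) within replicates 5-8. The latter had an unadjusted limma p of 0.00397 and an adjusted p of 0.855. The interaction of line and set was 0.79 (SE 0.28, unadjusted p = 0.0127, adjusted p = 0.708), and 0 of all probes (0%) passed that test. The second COX7A1 probe gave 0.71 (SE 0.27). Without low-RFI replicate 8, which held the muscle transcripts, the difference within replicates 5-8 was 0.49, and the part of muscle in it was not tested. Interactions of the other leading probes had adjusted p from 0.862 to 0.984.

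**Figure D3:**
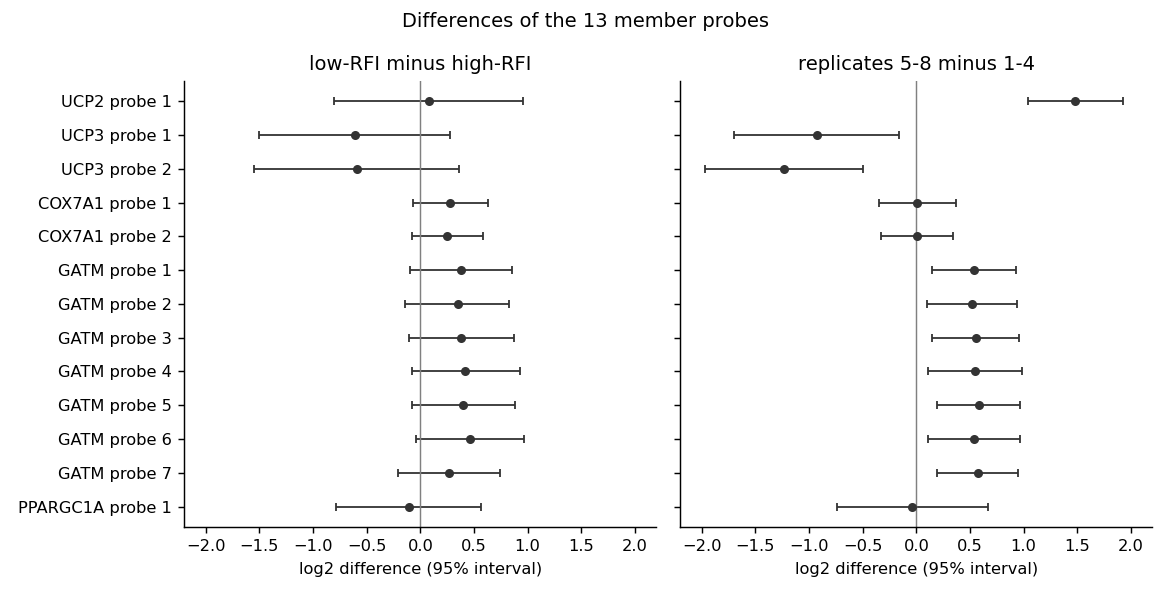
Points give the log2 difference of each of the 13 probes and bars its 95% interval from limma, for low-RFI minus high-RFI pigs on the left and for replicates 5-8 minus 1-4 on the right. On the right the intervals of UCP2, at 1.48, and of the 7 GATM probes lie above 0 and those of the UCP3 probes below it. Those of COX7A1 and PPARGC1A include 0. The intervals are not adjusted over all probes, and UCP2 alone passed after adjustment. On the left every interval includes 0.

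UCP2, UCP3 and GATM varied together over the 16 pigs, with UCP3 opposed to the others. Of the 10 pairs of members, 3 passed after adjustment over the 10. UCP2 and UCP3 correlated at r = -0.69 (permutation p = 0.00304, adjusted p = 0.0189) and rho = -0.72 (p = 0.00248, adjusted p = 0.0248), and at r = -0.63 without low-RFI replicate 2 and high-RFI replicate 3. UCP2 and GATM correlated at r = 0.69 (permutation p = 0.004, adjusted p = 0.0189) and rho = 0.64 (p = 0.00832, adjusted p = 0.0296), and at 0.69 without the same arrays. UCP3 and GATM correlated at r = -0.66 (permutation p = 0.00566, adjusted p = 0.0189) and rho = -0.64 (p = 0.00888, adjusted p = 0.0296), and at -0.67 without low-RFI replicate 3 and high-RFI replicate 1. With only low-RFI replicate 3 left out, r of the 3 pairs in this order was -0.84, 0.70 and -0.66.

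None of the 3 passed within a set of 8 arrays. Within replicates 1-4 and 5-8, r was -0.62 and -0.52 for UCP2 with UCP3, 0.55 and 0.37 for UCP2 with GATM, and -0.66 and -0.23 for UCP3 with GATM. For r the adjusted exact permutation p was 0.325 for each in the first set and 0.821 to 0.825 in the second. By rank the relations within replicates 1-4 were weaker, at rho = -0.07, 0.31 and -0.26 for the same pairs in order. Within replicates 5-8 rho was -0.52, 0.43 and -0.07. Low-RFI replicate 3 had the highest UCP2 and GATM values and the lowest UCP3 value of replicates 1-4, and r without it was not computed there. With the means of line and set removed, r was -0.59, 0.49 and -0.40 (adjusted permutation p = 0.0725, 0.15 and 0.21, rho = -0.36, 0.56 and -0.23). With slide means removed it was -0.73, 0.69 and -0.69 (adjusted permutation p = 0.0105 for each). A slide held too few arrays for a value of its own.

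UCP3 and COX7A1 were related in the replicate set where pooled arrays showed little. Over all arrays r was 0.21 (permutation p = 0.439, adjusted p = 0.732, rho = 0.31). Within replicates 1-4 r was 0.83 (rho = 0.90, exact permutation p = 8.9e-04, adjusted p = 0.00893), and low-RFI replicate 3 was the lowest array for both genes there. Within replicates 5-8 r was -0.25 (adjusted p = 0.825, exact permutation test). GATM and PPARGC1A stood at r = -0.52 (permutation p = 0.0392, adjusted p = 0.0981, rho = -0.38). The remaining 5 pairs lay between -0.15 and 0.31.

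**Figure D4:**
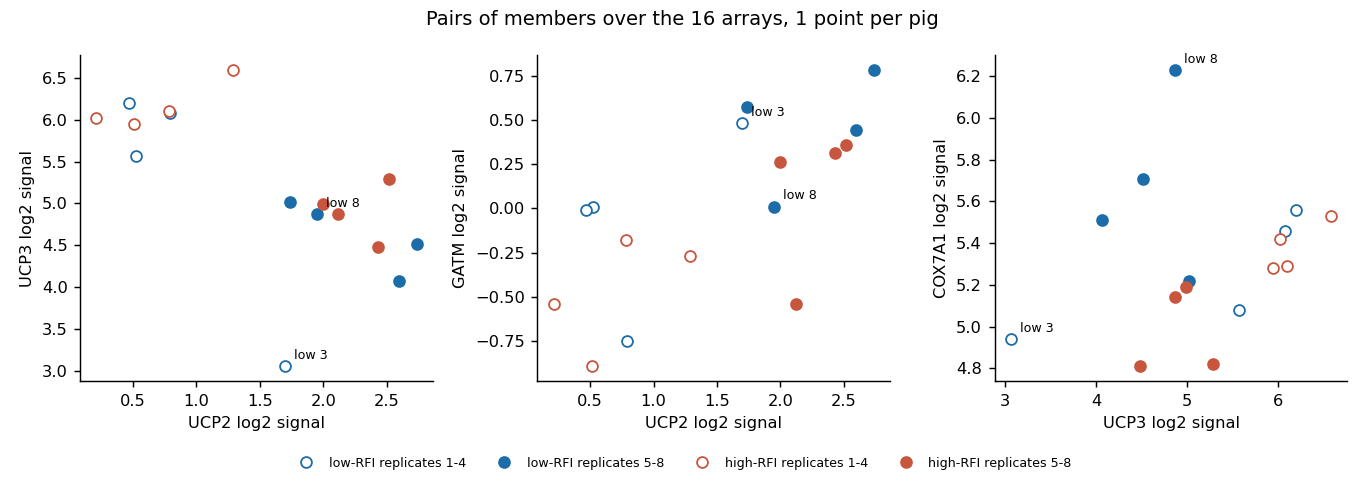
Each panel plots the log2 signals of a pair of leading probes, 1 point per pig, open for replicates 1-4 and filled for replicates 5-8, blue for low-RFI and red for high-RFI, with low-RFI replicates 3 and 8 named. UCP3 falls and GATM rises with UCP2 (r = -0.69 and 0.69), and UCP3 and COX7A1 line up in the open points (r = 0.83) but not in the filled ones.

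The genes most like each member over the 16 arrays, among 4429 compared, are given as a description. UCP2 was followed most closely by RPL23, a ribosomal protein, at r = 0.937, then by DDX39B, PMM1, GJC1 and NR1H3, the liver X receptor alpha, at 0.887. The 5 were picked by their likeness to UCP2, which separates the sets, so set differences among them follow from the choice. All 5 were called higher in replicates 5-8, by 0.27 to 0.86 (limma adjusted p = 0.0104 to 0.038), against 1.99% of all probes. They correlated with UCP2 at 0.61 to 0.83 within replicates 1-4 and at 0.53 to 0.84 within replicates 5-8. UCP3 was followed by TANGO2 at r = 0.931, then by FAM214A, LMBRD1, PHTF1 and ALDH6A1, a mitochondrial enzyme of valine breakdown, at 0.888. Within replicates 5-8 these 5 ranged from 0.18 to 0.83.

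For COX7A1 the order was DMD, the dystrophin gene, at r = 0.919, then CHCHD10, GPI, FAM213B and NDUFS6, a complex I subunit, at 0.853. Without low-RFI replicate 8 these were 0.733 to 0.887. GATM was followed by ANP32B at 0.918, RBP5, NHLRC2, CCND2 and STAG2 at 0.845. RBP5, a retinol-binding protein, was higher in replicates 5-8 by 2.30 (SE 0.60, limma adjusted p = 0.0416). It was picked by its likeness to GATM over these same arrays. PPARGC1A had the loosest company, led by PTDSS1, which makes phosphatidylserine, at 0.825, with TESPA1, ACTA2, ASB2 and FAM189A2 at 0.736 to 0.760.

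The wider pathways were read from 7 lists of 82 entries in all, which hold the members too. Among 8 uncoupling proteins and related carriers, 5 were measured and UCP2 was the 1 that passed between the sets; the median set difference was 0.13, against -0.03 over all probes. The adenine nucleotide carriers SLC25A5 and SLC25A6 stood at 0.30 (SE 0.16) and 0.13 (SE 0.07) and did not pass, and SLC25A27 stood at 0.10 (SE 0.18). Among 11 cytochrome c oxidase isoform subunits 3 were measured and none passed; COX7A2, the widely expressed counterpart of COX7A1, stood at -0.18 (SE 0.13) between the sets and 0.08 (SE 0.14) between the lines.

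Among 20 regulators of brown and beige fat, 12 were measured, and 1 passed between the sets. CITED1, a transcriptional coregulator used as a beige fat marker, was higher in replicates 5-8 by 1.07 (SE 0.21, limma adjusted p = 0.0164) and passed in 16 of 16 fits that left out an array. Of the other 11, 4 were positive and 7 negative. DIO2, the deiodinase that activates thyroid hormone, stood at -0.57 (SE 0.34, limma adjusted p = 0.328). Between the lines EBF2, a factor that sets brown fat fate, came closest in this list, at 0.43 (SE 0.15, limma adjusted p = 0.9999).

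Of 17 PGC-1 coactivators and partners, 9 were measured, PPARGC1A among them. All 9 had a negative set difference, with a median of -0.17 against -0.03 over all probes, and none passed. PPARGC1A, TFAM, PPARD and ESRRB lay between -0.06 and -0.04. Negative differences were the commoner direction on the array, with 4545 probes lower and 2990 higher at an unadjusted limma p under 0.05. SIRT1, a deacetylase that acts on PGC-1alpha, stood at -0.22 (SE 0.14, limma adjusted p = 0.354). PRKAA2, a catalytic subunit of the kinase AMPK, stood at -0.19 (SE 0.32, adjusted p = 0.759). Without low-RFI replicate 8 it fell by 0.52 (SE 0.13, adjusted p = 0.0352), in a fit that called 905 of all 32088 probes lower. That array was singled out by its muscle genes, so this p is a description. TFAM, a transcription factor that binds mitochondrial DNA, stood at -0.04 (SE 0.08).

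The medians of the creatine and calcium cycle lists moved when low-RFI replicate 8, the array with raised muscle genes, was left out, and the part of muscle in them was not tested. Of 10 creatine cycle genes 4 were measured, with a median set difference of 0.70 with that array and 0.15 without it, and none passed in either. GATM itself stood at 0.54 with that array and 0.61 without it. The creatine transporter SLC6A8 stood at 0.23 (SE 0.16), and the mitochondrial creatine kinase CKMT2, well above background on 15 of 16 arrays, at 0.91 (SE 1.06). Of 7 calcium cycle genes 4 were measured, and the median went from 0.88 to 0.18 without low-RFI replicate 8. PLN, which holds back the calcium pump SERCA, then fell by 0.73 in replicates 5-8 (SE 0.14, limma adjusted p = 0.019). That fit called 905 of all 32088 probes lower, and its array was singled out by its muscle genes, so this p is a description. PLN stood at -0.36 (SE 0.36, limma adjusted p = 0.58) with that array. RYR1 and SLN, a calcium channel and a SERCA regulator of muscle, stood at 1.20 (SE 0.95) and 1.52 (SE 1.32) with it.

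Of 9 genes of triglyceride breakdown and rebuilding, 8 were measured and none passed. DGAT2, which adds the last fatty acid to triglyceride, stood at 0.38 (SE 0.25) and MGLL, which splits off the last one, at 0.26 (SE 0.20) between the lines. PCK1, which feeds glycerol synthesis, stood at 1.21 between the sets (SE 0.51, limma adjusted p = 0.168). It passed without low-RFI replicate 3, an array picked on this same comparison, at 1.55 (adjusted p = 0.0279). PCK1 was named here after its value was seen. No gene of the 7 lists passed between the lines. None of the lists had a line median beyond 0.08 from 0, except the creatine and calcium cycles at 0.53 and 0.70, which were 0.06 and -0.12 without low-RFI replicate 8.

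**Figure D5:**
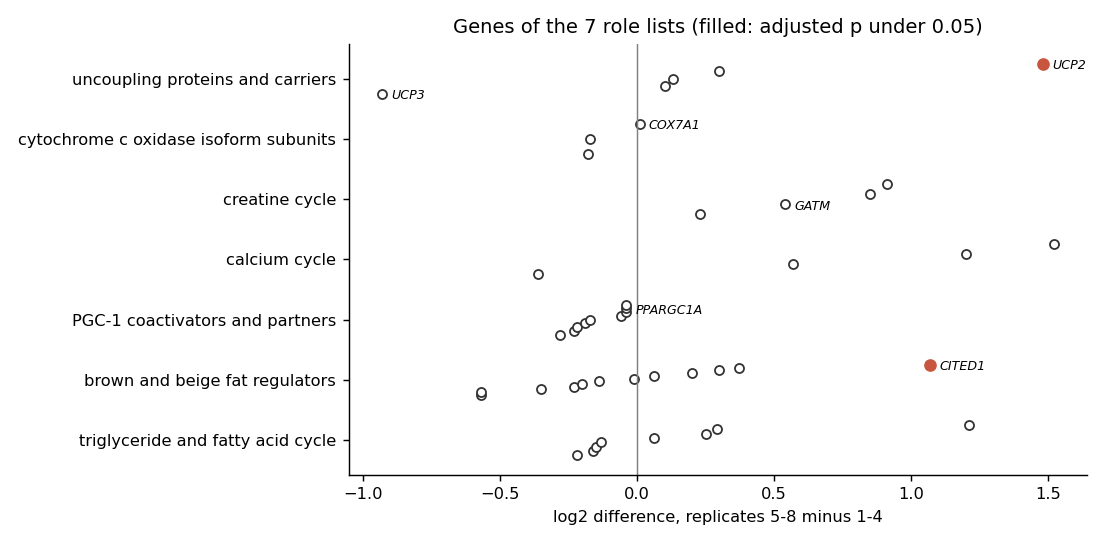
Points give the log2 difference between replicates 5-8 and 1-4 for each measured gene of the 7 lists, filled where the limma adjusted p was under 0.05, with the members and CITED1 named. UCP2 and CITED1 are the filled points, and the 9 PGC-1 coactivators and partners all lie below 0, with a median of -0.17 against -0.03 over all probes.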

How the data were processed

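Per the file headers, the arrays were quantified with Agilent Feature Extraction 10.7.3.1, whose deposited processed intensity is background subtracted and detrended within each array. The submitters' processing notes name R 2.10.0. A deposited log2 value table equalled the median-centred log2 processed intensity (largest difference 4.9e-08 over 28963 listed spots) and served as an alternative. Per the labels, 150 ng of RNA per pig was labelled.

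Here log2 intensity minus each array's 75th percentile was used. Outlier spots were left out and spots of a probe averaged. Of 43603 probes, 32216 were well above background on at least 8 arrays, and 32088 of them had at least 6 values in each line and replicate set, a condition set after the spots were seen. A gene's leading probe has the highest mean signal. Differences were fitted with limma 3.58.1 in R 4.3.3 (line; line and set; their interaction) with Benjamini-Hochberg adjustment over all 32088 probes, and the code was tested on simulated data. Correlations used 100000 permutations, or all for 8 arrays. Nothing says that pigs are unrelated, so p-values measure the spread between these pigs. The lines share replicate numbers, but same-numbered pigs did not vary together (correlation over 0.1 in 3 of 8 pairs), so the numbers were not used as pairs. From each list, genes past the threshold are named, or the 2 with the smallest line p; those named beyond these were chosen after their values were seen. The members and lists were chosen with earlier results of these data known. Gene names come from the files and RefSeq (Sscrofa11.1, names only). Alternatives covered background correction, scaling, filters, blocks, weights, slides and single arrays. The 16 arrays limit the precision.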

Additional observations from a re-analysis of the deposited data

How the results depend on the processing

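UCP2 kept the sign of its set difference under all 32 alternatives (0.98 to 1.98) and passed in 27. It did not pass within slides 1 to 4 (1.49, 1.98, 0.98 and 1.48) or within low-RFI (1.39), and passed within high-RFI (1.57). The subsets by slide and line, the fit without low-RFI replicates 3 and 8 and the slide residuals were chosen after seeing the data. The count of probes called between the sets was 1662, of which 38.5% were higher. It was 17 with normexp background correction (2 higher and 15 lower), 865 without the filter on dim probes, 5311 with array weights, 4759 without low-RFI replicates 3 and 8, 0 within each slide and 0 within low-RFI. Leaving out 1 array gave 603 to 4788. Normexp also moved the median line difference of all probes to -0.12, and its cause was not tested.

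The UCP3 set difference passed with array weights (-1.21), without low-RFI replicates 3 and 8 (-1.32) and within high-RFI (-1.26), and was 0.24 within slide 3. Leaving out 1 array gave -1.29 to -0.81. GATM passed with array weights (0.61) and without replicates 3 and 8 (0.69); leaving out 1 array gave 0.44 to 0.64. The COX7A1 set difference, near 0, was -0.03 with normexp, -0.11 with array weights, -0.17 without replicates 3 and 8, -0.39 within high-RFI, -0.22 and -0.09 within slides 1 and 3, and -0.11 to 0.07 with 1 array left out. That of PPARGC1A was 0.11 with normexp, 0.17 within low-RFI, 0.98 within slide 1 and -0.24 to 0.10 with 1 array left out.

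No line difference of a member passed under any of 35 alternatives. For UCP2 it was -0.17 and -0.02 within slides 1 and 2, -0.01 within replicates 5-8, -0.01 without replicates 3 and 8, and -0.10 to 0.24 with 1 array left out. For COX7A1 it was -0.12 within replicates 1-4, for GATM -0.23 within slide 4, and for PPARGC1A 0.96 within slide 4, 0.10 within replicates 5-8 and -0.30 to 0.05 with 1 array left out. The fit within replicates 1-4 called 5 probes, none of a member, and leaving out 1 array 0 to 1. With replicate number as a block, 0 probes passed between the lines, as without the block, and UCP2 stood at 0.08 and COX7A1 at 0.28; in 1 of 8 pairs each pig correlated best with its own number. The interaction called 0 probes throughout. For UCP2 it was 0.10 with array weights, 0.20 without replicates 3 and 8 and -0.38 to 0.09 with 1 array left out; for UCP3 -0.16 and -0.07 to 0.97; for GATM 0.03 with normexp, 0.28 and -0.27 to 0.13; for PPARGC1A -0.00 to 0.84.

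The correlations of UCP2 with UCP3, UCP2 with GATM and UCP3 with GATM passed in 21 of 26 alternatives. They did not pass within low-RFI (-0.70, 0.71 and -0.68), high-RFI (-0.77, 0.75 and -0.51), replicates 1-4 (-0.62, 0.55 and -0.66), replicates 5-8 (-0.52, 0.37 and -0.23) or the residuals after line and set (-0.59, 0.49 and -0.40). UCP3 with COX7A1 passed in 1 of 26, at 0.83 within replicates 1-4, and was -0.25 within replicates 5-8. UCP3 with PPARGC1A, at 0.00, was -0.06 with normexp and after line and set, -0.03 with quantile scaling and within low-RFI, -0.04 within high-RFI, -0.10 within replicates 1-4, -0.02 after slide, and -0.09 to 0.15 with 1 array left out. UCP2 with COX7A1 was 0.09 with normexp, 0.33 within low-RFI and -0.23 to 0.04 with 1 array left out, and UCP2 with PPARGC1A 0.10 within low-RFI. COX7A1 with GATM was 0.11 after slide and 0.03 within replicates 5-8. COX7A1 with PPARGC1A was -0.08 with normexp, -0.16 within replicates 1-4 and -0.06 to 0.43 with 1 array left out, and GATM with PPARGC1A -0.61 to -0.46, past the threshold in 2 of 16.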
